A study of Mus musculus with 12 samples.

Results

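Mesodermal and endodermal transcription factors are DNA-binding proteins that start the development of muscle, skeleton, heart, kidney, gut and vessels in the embryo, and they are described here in germ cells of mice with a conditional knockout of Ezh2. They were chosen by developmental role as a list of 56 gene names, and 55 of the names were found among the 37991 genes of the count table. Foxl1 had no matching entry. RNA sequencing counted reads per gene in primordial germ cells, the precursors of eggs and sperm, sorted from mouse embryos at E13.5 (days of embryonic development). The strain background was C57BL/6 throughout. The groups were female control (Ctrl, 3 embryos), female conditional knockout of Ezh2 (CKO, 2 embryos), male Ctrl (4 embryos) and male CKO (3 embryos). Each library held the germ cells of 1 embryo. The Cre driver, the genotype of the Ctrl embryos, the litters and the deleted exons are not given in the sources used here.

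Ezh2 is the catalytic subunit of Polycomb repressive complex 2 (PRC2), which places the repressive histone mark H3K27me3. In many cell types this mark lies over the start sites of developmental transcription factors that the cell does not use. Primordial germ cells descend from the epiblast under signals that also induce mesoderm, and by the stage sampled here they lie in the gonad, where female cells approach meiosis and male cells approach mitotic arrest. The comparisons ask how RNA of the mesodermal and endodermal factors differed between CKO and Ctrl germ cells of each sex, and between the sexes.

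Library totals ran from 26180685 to 35299206 counts, and values are given as CPM, the read count scaled to library size, with TMM (trimmed mean of M values) correction. Ezh2 itself, which checks the labels, lay between 145 and 166 CPM in female Ctrl and between 84.5 and 107 CPM in female CKO embryos. In males it lay between 96.6 and 144 CPM in Ctrl and between 82.4 and 85.8 CPM in CKO embryos. The log2 fold change of Ezh2 was -0.68 in females (adjusted p = 0.020) and -0.53 in males (adjusted p = 0.053) by edgeR's quasi-likelihood test. The groups were apart in both sexes, and the male difference missed the threshold. A gene's reads outside a deleted part check nothing, so these counts do not show how much of the allele was lost. Germ cell marker genes summed to between 5903 and 6603 CPM in all 12 libraries. The largest part was Dazl, at 2258 to 3217 CPM. The sum hides single markers that differed. In females Dppa3, Pou5f1, Kit, Dnd1 and Prdm1 were lower in each CKO embryo than in any Ctrl embryo. Ddx4, Mael and Tdrd1 were higher there, and the remaining markers overlapped. In males Ctrl and CKO embryos overlapped for every marker.

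The sequence around gene starts is shown first, because CpG-rich start regions are the usual places of PRC2 in mouse cells. RefSeq gives 300-base windows (250 bases before and 50 bases after a start, assembly GRCm38.p6) for 35 of the 55 genes, 39 windows in all. The build differs from mm9, on which the reads were counted, so the windows serve as sequence context and no counts were taken over them. Printed below are the 250 bases before the start of Tbx1 and Six2, the genes with the smallest adjusted p among those lower in CKO embryos over both sexes, and of Pax8, a gene higher over both sexes. All are on the minus strand, written 5′ to 3′ in the direction of transcription, with every CG in capitals. Tbx1 has start sites with windows at chr16:18588900-18589149 and chr16:18590672-18590921, Six2 at chr17:85688255-85688504 and Pax8 at chr2:24475600-24475849.
Tbx1 start site 1: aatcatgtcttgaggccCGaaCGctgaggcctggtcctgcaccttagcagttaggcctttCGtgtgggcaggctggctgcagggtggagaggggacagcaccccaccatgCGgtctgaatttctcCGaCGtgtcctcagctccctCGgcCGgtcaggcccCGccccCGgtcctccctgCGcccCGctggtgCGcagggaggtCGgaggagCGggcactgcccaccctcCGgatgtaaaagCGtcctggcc
Tbx1 start site 2: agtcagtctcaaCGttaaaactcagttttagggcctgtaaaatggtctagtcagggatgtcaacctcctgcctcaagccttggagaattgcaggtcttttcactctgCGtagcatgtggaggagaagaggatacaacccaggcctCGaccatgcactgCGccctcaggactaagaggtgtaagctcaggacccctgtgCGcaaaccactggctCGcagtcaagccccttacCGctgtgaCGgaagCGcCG
Six2: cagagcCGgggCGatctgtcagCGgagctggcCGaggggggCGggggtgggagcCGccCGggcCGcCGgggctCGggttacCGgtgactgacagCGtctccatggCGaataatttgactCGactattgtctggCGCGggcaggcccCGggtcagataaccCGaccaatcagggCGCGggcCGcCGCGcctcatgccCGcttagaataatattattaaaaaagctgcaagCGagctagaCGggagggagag
Pax8: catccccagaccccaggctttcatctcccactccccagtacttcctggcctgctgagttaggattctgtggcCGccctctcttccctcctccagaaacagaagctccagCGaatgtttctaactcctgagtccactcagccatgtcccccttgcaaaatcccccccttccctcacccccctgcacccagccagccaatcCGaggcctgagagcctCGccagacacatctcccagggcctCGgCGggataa
The stretch before Six2 held 26 CG, the stretches before Tbx1 held 17 and 10, and the stretch before Pax8 held 6. The stretches before the start sites of Foxa2, not printed here and also lower over both sexes, held 6, 20 and 13. Tcf15, also higher over both sexes, has no window.

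Over the full windows, the median CpG count was 15 in the 39 windows of these factors, 13 in the 21262 windows of protein-coding genes and 7 in all 32851 windows. The ratio of observed to expected CpG had a median of 0.639 against 0.567 for protein-coding genes. A ratio above 0.6, a common limit for CpG islands, was found in 24 windows of these factors, which is 61.5%, against 47.6% of the windows of protein-coding genes. Six2 had a ratio of 1.13, Tbx1 ratios of 0.729 and 0.633, Foxa2 0.548, 0.767 and 0.68, Tbx4 0.314 and Pax8 0.288. Windows on both sides of 0.6 were thus found among the genes described below. CG was searched as the letters CG, which read the same on both strands. First transcribed bases of 36 of the 39 windows were found in an annotated transcript, and start site 1 of Tbx1 was among the 3 that were not. H3K27me3 over these windows was not analysed here.

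**Figure D1:**
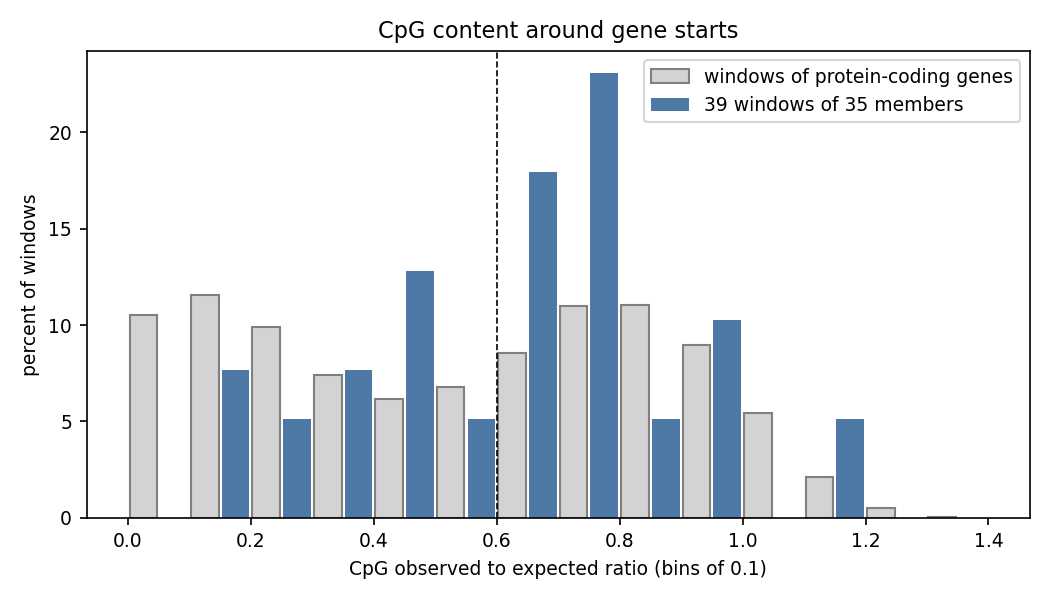
Percent of 300-base start windows (vertical axis) by the ratio of observed to expected CpG in bins of 0.1 (horizontal axis), for 39 windows of 35 mesodermal and endodermal factors (blue) and for windows of protein-coding genes (grey); the dashed line is at 0.6. Blue bars right of the line add up to 61.5%, grey bars to 47.6%.

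Most of these factors had little RNA in the germ cells. Of the 55 genes, 35 passed the filter on low counts and were tested among 16708 genes, and 20 did not. Only 16 had a mean of at least 1 CPM over the 12 libraries, and 5 reached 5 CPM. Per kilobase of exon, 3 factors lay above the median of the tested genes, which was 3.53 CPM per kilobase. These were Tbx4, a T-box factor of limb and lung mesenchyme, at 21.2 CPM per kilobase, Tcf15, a helix-loop-helix factor of the somites, at 8.49, and Cdx1, a caudal homeobox factor of the posterior body and gut, at 5.46. Mesp2, a regulator of somite boundaries, followed at 2.89, and the other tested genes ran from 1.91 for Evx1 down to 0.017 for Hnf4a. The endoderm factor Foxa1 lay at 0.393 and the kidney progenitor factor Six2 at 1.14 CPM per kilobase. In bulk RNA, a few cells with much RNA of a gene and many cells with little cannot be told apart.

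Among the genes with next to no RNA, Alx1, a factor of the facial mesenchyme, and Evx2, an even-skipped homeobox gene of the limb and tail, had no count in any library. A floor of 3 counts over all libraries corresponds to 0.00825 CPM, and it covers counting error only, since amplified reads are not independent molecules. Pdx1, the master factor of the pancreas, had 3 counts in female Ctrl 2, 1 in female Ctrl 3, 3 in male Ctrl 2 and none elsewhere. Hnf4a, a factor of liver and gut, had 11 counts in male Ctrl 2, 11 in male CKO 2, 4 in female CKO 1 and 1 in male Ctrl 3. The other 8 libraries had none. Prrx1, a limb mesenchyme factor chosen here after its values were seen because it is the extreme, had the largest count of any untested gene, 21 in female Ctrl 1. The libraries had a count for between 33 and 47 of the 55 genes.

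**Figure D2:**
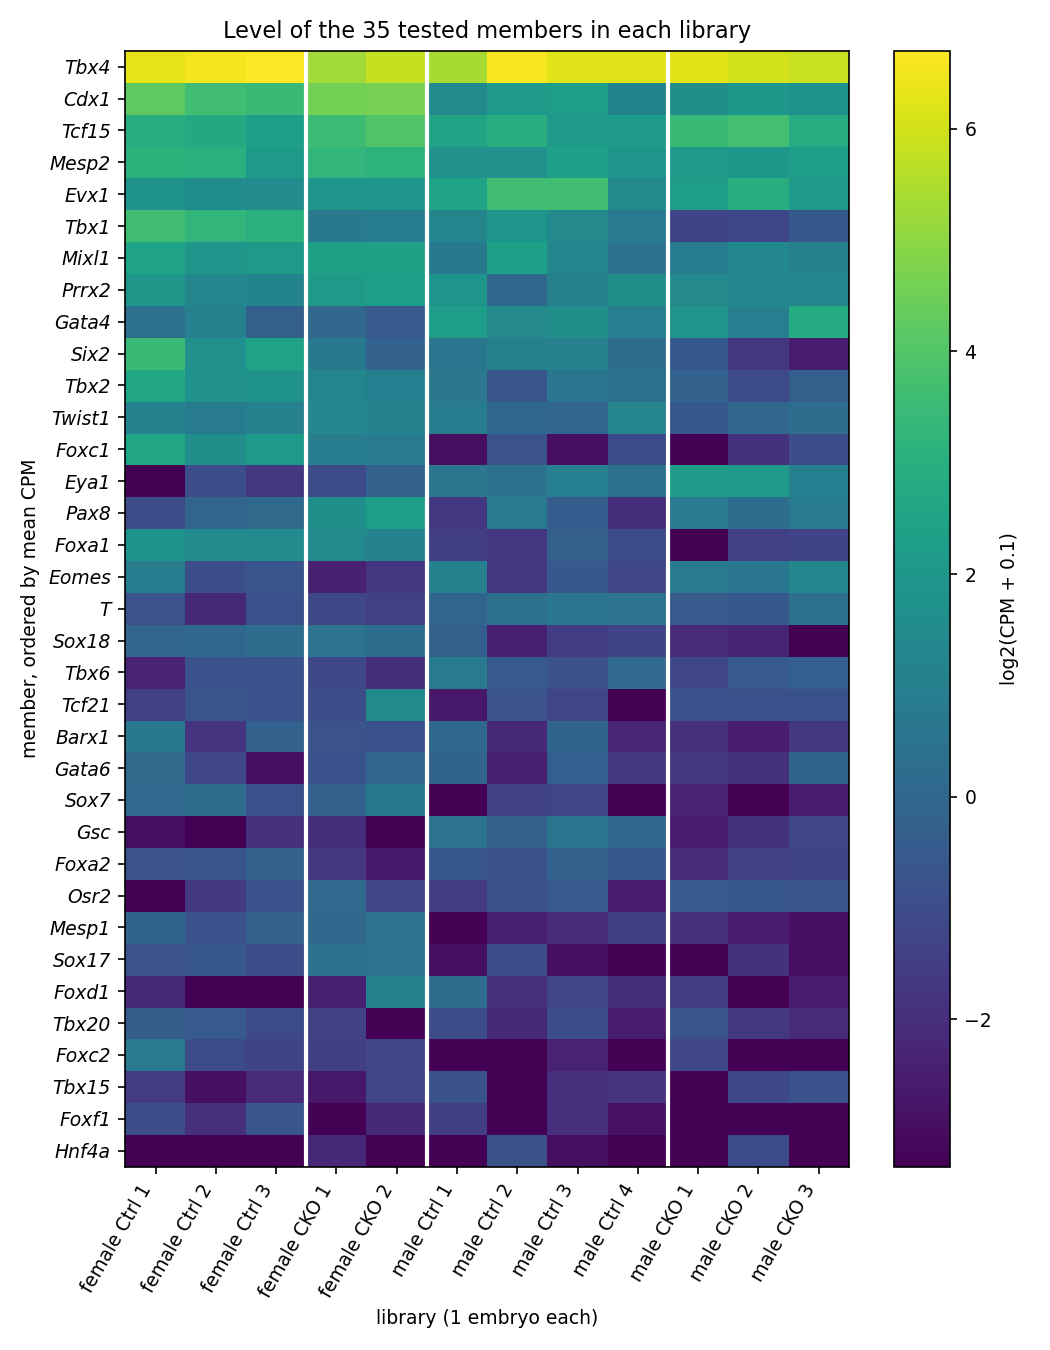
Level of the 35 tested factors (rows) in each of the 12 embryos (columns, by group), as log2(CPM + 0.1) on the colour scale. Tbx4 is high in every library, while Hnf4a, Foxf1 and Foxc2 are at or near 0 in most.

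Few of the factors passed the test between CKO and Ctrl germ cells. In females, 2 of the 35 tested genes were called, both lower, against 7.17% of all tested genes (3.01% higher and 4.16% lower). In males 1 of 35 was called, lower, against 1.7% of all genes (1.2% higher and 0.497% lower). Calls rest on an adjusted p below 0.05 in edgeR's quasi-likelihood test, with Benjamini-Hochberg adjustment over the 16708 genes. For the mean CKO effect over both sexes, 5 of 35 were called, 2 higher and 3 lower, against 14.7% of all genes (6.85% higher and 7.87% lower). The factors' counts were therefore close to what the shares of all genes give for 35 genes. The median log2 fold change of the 35 genes was 0.29 in females and -0.28 in males, with -0.0036 and -0.018 for all genes. The sign was the same in both sexes for 20 of the 35 genes. In females DESeq2 called 6 of 35, 3 higher and 3 lower, against 11.9% of all genes (5.46% higher and 6.44% lower). The tool limma-voom also called 3 higher and 3 lower, against 12.4% of all genes (6.74% and 5.64%). Scaling by library size alone moved the median of all genes in females to 0.11 and their calls to 3.9% higher and 2.14% lower, with 1 factor higher (Tcf15) and 1 lower (Tbx1). Over both sexes that scaling called 9.01% of all genes higher and 4.68% lower, with 2 factors higher and 3 lower.

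Tbx1 was the factor called in both sexes. It encodes a T-box factor of the pharyngeal mesoderm and the outflow tract of the heart. Tbx1 (ENSMUSG00000009097, chromosome 16) stood at 12.4, 9.66 and 8.23 CPM in the female Ctrl and at 1.49 and 1.78 CPM in the female CKO embryos. In males it stood at 2.25, 3.75, 2.55 and 1.63 CPM in Ctrl and at 0.305, 0.347 and 0.585 CPM in CKO embryos. No CKO embryo reached the lowest Ctrl embryo of its sex, and female CKO embryos lay near the lowest male Ctrl embryo. Means fell from 10.1 ± 2.11 CPM (SD, n = 3) to 1.63 ± 0.200 CPM (n = 2) in females and from 2.55 ± 0.893 CPM (n = 4) to 0.412 ± 0.151 CPM (n = 3) in males. The log2 fold change was -2.62 (SE 0.40, adjusted p = 0.00455, edgeR) in females and -2.61 (SE 0.37, adjusted p = 0.00518) in males. Tbx1 passed the threshold under every alternative processing that was run, including each embryo left out in turn. Markers of the somatic gonad summed to between 124 and 154 CPM in female Ctrl and 97.8 and 104 CPM in female CKO embryos. In male embryos they summed to between 62.4 and 97.2 CPM. Most of the sum was Cbx2, itself a Polycomb gene, at 56.6 to 139 CPM. The sum thus mainly follows Cbx2 and cannot be read as an amount of somatic RNA. Lhx2 was 12.7 to 15.1 CPM in female Ctrl, 6.41 and 4.99 CPM in female CKO and 0.338 to 1.72 CPM in males. Wt1 was 0.338 to 0.48 CPM in female Ctrl, 0.41 and 1.17 CPM in female CKO and 0.743 to 1.87 CPM in males. Nr5a1 was 0.0686 to 0.438 CPM in females and 0.606 to 3.83 CPM in males. Lhx9, Emx2 and Upk3b reached 1.47, 0.782 and 1.96 CPM. The part of these markers in the differences was not tested.

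Six2, a homeobox factor that keeps kidney progenitors in the metanephric mesenchyme, was lower as well. Six2 (ENSMUSG00000024134, chromosome 17) stood at 10.6, 3.28 and 5.56 CPM in female Ctrl and at 1.58 and 0.782 CPM in female CKO embryos. In males it stood at 1.37, 2.02, 1.95 and 1.06 CPM in Ctrl and at 0.575, 0.208 and 0.0688 CPM in CKO embryos. The groups did not overlap in either sex, and female Ctrl 1 was the highest of all embryos. The log2 fold change was -2.45 in females (SE 0.65, adjusted p = 0.0407, edgeR) and -2.47 in males (SE 0.61, adjusted p = 0.0578), so the male difference missed the threshold in this fit. The male difference passed with DESeq2 (adjusted p = 0.00138), limma-voom (0.0398) and no filter (0.0292), and without male CKO 1, where it was -3.49 (adjusted p = 0.0281, edgeR). Its value over both sexes was -2.46 (SE 0.45, adjusted p = 0.00372, edgeR), and this call was kept under every alternative. The female call was lost without female Ctrl 1 (adjusted p = 0.123, edgeR), Ctrl 3 (0.0844), CKO 1 (0.11) or CKO 2 (0.247). It was also lost without male Ctrl 3 (adjusted p = 0.0539, edgeR) or male CKO 2 (0.0623), which enter through the shared spread. Scaling by library size alone lost the female call too, at -2.34 (adjusted p = 0.0536, edgeR).

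Foxa2, the forkhead factor of definitive endoderm and notochord, was low in all embryos and lower still in CKO embryos. It had 16, 16 and 23 counts in the female Ctrl against 7 and 2 in the female CKO embryos. Male Ctrl embryos had 19, 11, 24 and 15 counts and male CKO embryos 4, 8 and 9. On the CPM scale the groups did not overlap in either sex, with 0.454 CPM in the lowest male Ctrl and 0.31 CPM in the highest male CKO embryo. The log2 fold change over both sexes was -1.71 (SE 0.43, adjusted p = 0.0202, edgeR), while -2.12 in females (adjusted p = 0.0771) and -1.29 in males (adjusted p = 0.245) missed the threshold. Without female CKO 2 the value over both sexes was -1.39 (adjusted p = 0.0883, edgeR).

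Tcf15 and Pax8 were the factors called higher over both sexes. Tcf15 (ENSMUSG00000068079, chromosome 2) stood at 7.49, 6.79 and 4.97 CPM in female Ctrl and at 11.6 and 15.6 CPM in female CKO embryos. In males it stood at 5.64, 7.8, 4.14 and 4.58 CPM in Ctrl and at 10.9, 12.9 and 7.36 CPM in CKO embryos. The female groups were apart, and in males CKO 3 lay below Ctrl 2. Over both sexes its log2 fold change was 1.00 (SE 0.20, adjusted p = 0.00695, edgeR), a call kept under every alternative. Within each sex it was 1.08 in females (adjusted p = 0.0515, edgeR) and 0.91 in males (adjusted p = 0.0957). The female value passed in 11 of 20 alternatives, among them DESeq2 (adjusted p = 0.00918), limma-voom (0.0222), median-of-ratios scaling (0.0496) and the replicate block (0.0479), and also without male Ctrl 1 (0.0439), male Ctrl 2 (0.0217) or male CKO 3 (0.0449). The male value passed with DESeq2 (adjusted p = 0.0181), limma-voom (0.0176) and without male Ctrl 2 (0.0298).

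Pax8 is a paired-box factor of the thyroid, the nephric duct and its derivatives. Pax8 (ENSMUSG00000026976, chromosome 2) stood at 0.399, 0.876 and 0.995 CPM in female Ctrl and at 3.1 and 4.75 CPM in female CKO embryos. In males it stood at 0.204, 1.61, 0.662 and 0.151 CPM in Ctrl and at 1.62, 1.14 and 1.65 CPM in CKO embryos. The female groups were apart, while male Ctrl 2 lay among the male CKO embryos. Over both sexes its log2 fold change was 1.78 (SE 0.47, adjusted p = 0.0239, edgeR). It was 2.37 in females (adjusted p = 0.0604, edgeR) and 1.19 in males (adjusted p = 0.36). The female value passed in 7 of 19 alternatives, among them DESeq2 (adjusted p = 0.0198), limma-voom (0.00696) and the replicate block (0.0406), and also without male Ctrl 1 (0.0335), male Ctrl 2 (0.0148) or male Ctrl 4 (0.0443). Without male Ctrl 2 the male value was 2.12 (adjusted p = 0.0472, edgeR). The call over both sexes was lost without female Ctrl 1 (adjusted p = 0.0559, edgeR), female CKO 2 (0.0873) or male CKO 3 (0.0538). Markers of mesonephric epithelium without Pax8 summed to between 38.9 and 55.4 CPM in females and between 94.6 and 117 CPM in males, and Ctrl and CKO overlapped in both sexes. Most of the male sum was Lhx1, which lay between 3.04 and 113 CPM. Wfdc2 was higher in every CKO embryo than in any Ctrl embryo of its sex, at 27.2 and 30.2 CPM against 17.8 to 19.6 CPM in females and at 5.1 to 5.95 CPM against 1.75 to 5.07 CPM in males. Gata3 lay between 9.66 and 15.3 CPM in females and between 0.35 and 1.11 CPM in males, and Emx2 reached 0.782 CPM. Pax2 lay between 0 and 0.099 CPM with no count in 6 libraries, and Cdh16 had no count in 9 libraries. The part of these markers in the Pax8 values was not tested.

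**Figure D3:**
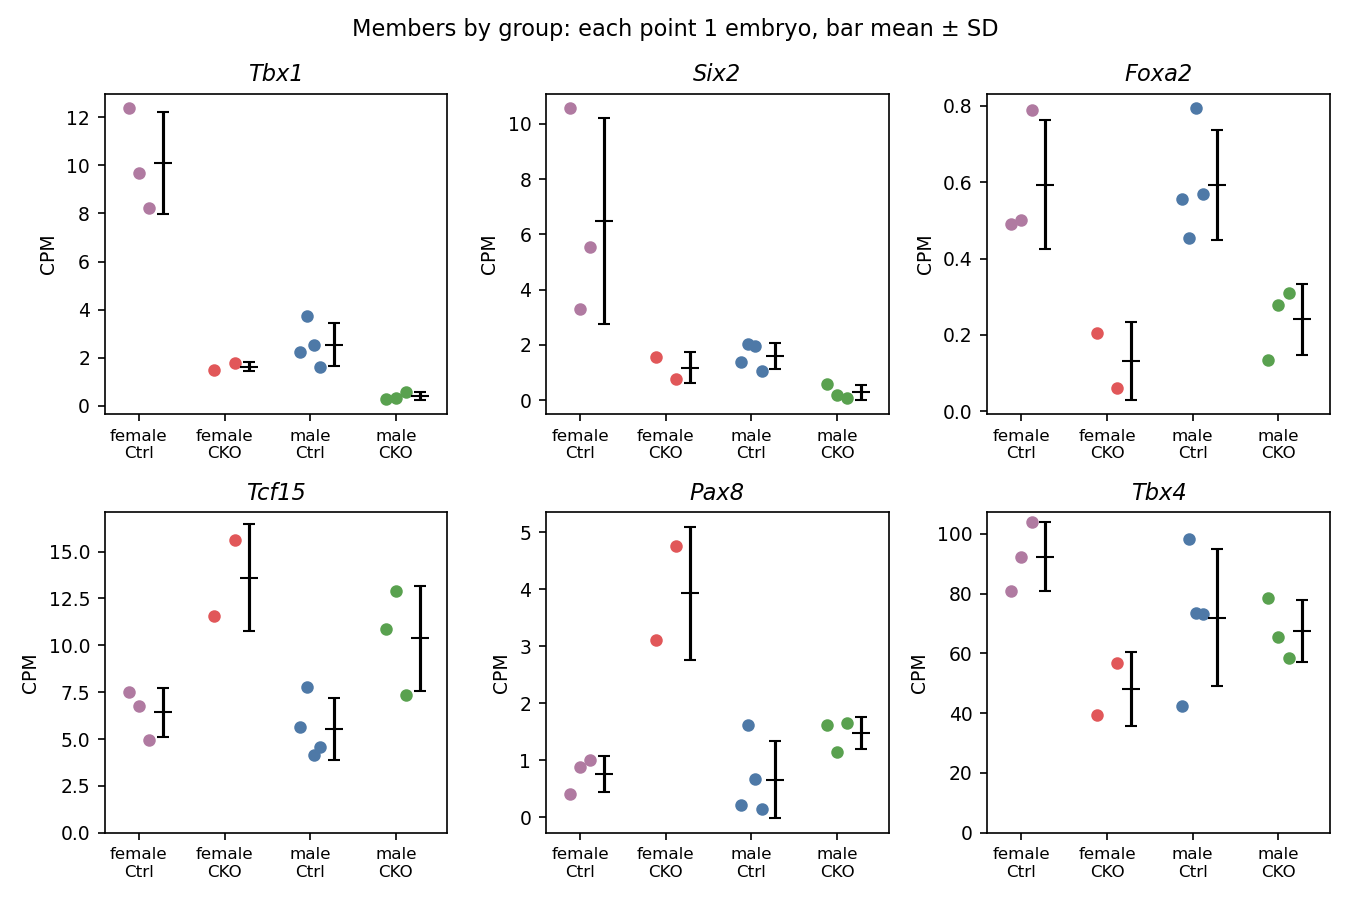
CPM (vertical axes, from 0) of Tbx1, Six2, Foxa2, Tcf15, Pax8 and Tbx4 in each embryo (points), by group, with the mean ± SD as bars. Tbx1, Six2 and Foxa2 have every CKO embryo below every Ctrl embryo of its sex, while Tbx4 is apart in females only.

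Tbx4, the factor with the highest level per kilobase, was not called by edgeR. It stood at 81.0, 92.4 and 104 CPM in female Ctrl and at 39.4 and 56.9 CPM in female CKO embryos. In males it stood at 42.3, 98.3, 73.7 and 73.2 CPM in Ctrl and at 78.7, 65.5 and 58.3 CPM in CKO embryos. The female groups were apart, and the male CKO values lay inside the range of the male Ctrl values. The log2 fold change was -0.94 in females (SE 0.27, adjusted p = 0.0555, edgeR) and -0.09 in males (adjusted p = 0.89). In females it was called lower by DESeq2 (adjusted p = 0.0124), by limma-voom (0.0125) and in edgeR with only the groups compared (0.0123), without male Ctrl 1 (0.0128) or without male Ctrl 2 (0.0264). Over both sexes the value was -0.52 (adjusted p = 0.0673, edgeR), called by DESeq2 (0.0345), by limma-voom (0.0136) and without male Ctrl 1 (0.00776). Tbx4 made up between 31.6% and 68.8% of the summed CPM of the 55 genes, which ran from 90.8 to 185 CPM per library.

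Groups that did not overlap were found for more factors than passed the test. In females 10 of the 35 genes had every CKO embryo above every Ctrl embryo and 10, Tbx1 and Six2 among them, had every CKO embryo below, against 22.2% and 22.3% of all tested genes. In males 1 of 35 lay above (Eya1) and 4 lay below (Tbx1, Six2, Gsc and Foxa2), against 8.01% and 6.97% of all genes. Eya1, a cofactor of Six2 and its relatives in kidney and ear, had a log2 fold change of 1.24 in males (adjusted p = 0.277, edgeR) and 1.31 over both sexes (adjusted p = 0.0827), where DESeq2 called it (0.0232). Without female Ctrl 2 the value of Eya1 over both sexes was 1.86 (adjusted p = 0.0359, edgeR). Gsc, the homeobox gene of the gastrula organizer, had -2.45 in males (adjusted p = 0.154, edgeR), with 45, 18, 41 and 24 counts in Ctrl and 2, 5 and 10 in CKO embryos, and limma-voom called it (0.0205). In females the values were 0.86 for Cdx1 (adjusted p = 0.114, edgeR, and 0.013 by limma-voom) and -2.57 for Eomes (adjusted p = 0.135). Prrx2, a limb mesenchyme factor, had 0.72 (adjusted p = 0.361, edgeR) and the cardiac factor Tbx20 had -1.87 (adjusted p = 0.311). Foxf1, a factor of gut mesenchyme, had 14, 5 and 16 counts in female Ctrl, 0 and 4 in female CKO, 9, 0, 5 and 1 in male Ctrl and none in the 3 male CKO embryos.

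The primitive streak factors showed no called CKO effect. T (brachyury), which drives mesoderm formation, had a log2 fold change of -0.18 in females (adjusted p = 0.892, edgeR) and -0.63 in males (adjusted p = 0.545). Eomes, a T-box factor of early endoderm and cardiac mesoderm, had 57, 14 and 15 counts in female Ctrl against 3 and 7 in female CKO embryos. Male Ctrl embryos had 68, 5, 17 and 9 counts of Eomes and male CKO embryos 50, 41 and 67. Eomes was thus low in female CKO and high in male CKO embryos, with female Ctrl 1 and male Ctrl 1 apart from their groups. Mixl1, a homeobox factor of the streak, lay between 3.66 and 5.53 CPM in all female embryos and between 1.29 and 4.91 CPM in all male embryos. Its log2 fold change was 0.20 in females and -0.28 in males (adjusted p = 0.842 and 0.78, edgeR). The endoderm factors Gata6 and Sox17 were not called in either sex.

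**Figure D4:**
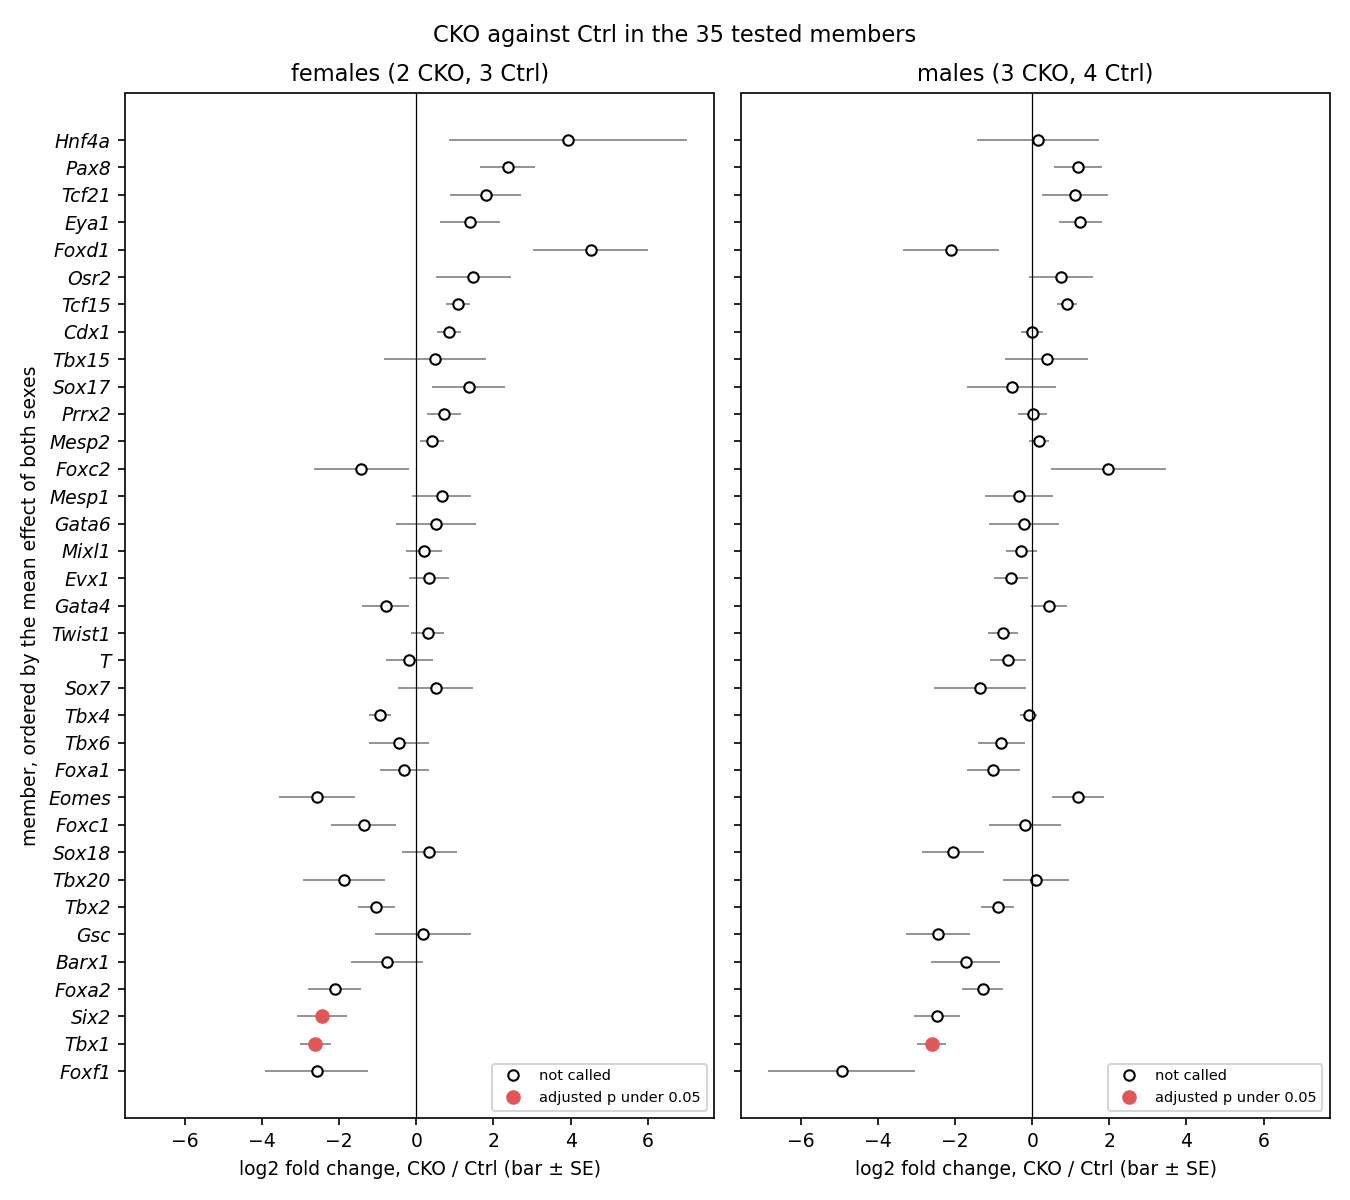
Log2 fold change of CKO against Ctrl with its SE (horizontal axes, the same scale in both panels) for the 35 tested factors (rows), in females and in males. Tbx1 lies at -2.62 in females and -2.61 in males with short bars, whereas Hnf4a, Foxf1 and Foxc2 have wide bars from few counts, and the values of Foxf1 in males and Hnf4a in females, with a group at 0 counts, are no measure of size.

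No factor passed the test for a CKO effect that differs between the sexes. The test of the difference called 0 of the 35 factors and 0.0% of all genes in edgeR. DESeq2 and limma-voom called 0 factors too. At an unadjusted p under 0.05 (edgeR) were 4 factors, and the share of all genes at that limit was not counted. The smallest adjusted p of a factor was 0.465 (edgeR). The 4 factors were Tbx4, Eomes, Sox18 and Foxd1, the last named here after its values were seen. A missed threshold in 1 sex is therefore not shown to be a difference between the sexes.

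Other genes of the same developmental programmes were taken from lists of pathway genes. Of 28 tested genes for germ layer signals, 3 fell in CKO females, namely the TGF-beta family ligand Gdf3 (log2 fold change -1.19), the signal transducer Smad4 (-0.68) and the receptor Fgfr2 (-0.92), against 4.16% of all genes lower. In males 1 rose, the Wnt antagonist Dkk1, with 1.90 (adjusted p = 0.0235, edgeR), against 1.2% of all genes higher. The mean effect over both sexes called Dkk1 higher and Gdf3, Smad4 and Bmp7 lower, against 6.85% and 7.87% of all genes. The median of the 28 genes was -0.13 in females and 0.05 in males.

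Mesoderm differentiation genes, which include products of heart and muscle, and Mesp1 of the listed factors, had 0 of 24 called in each sex by edgeR. All genes had 7.17% called in females and 1.7% in males. At an unadjusted p under 0.05 (edgeR) were 6 genes in females and 9 in males. The share of all genes at that unadjusted limit was not counted, so these numbers have no background to be set against. DESeq2 called 1 higher in females, against 5.46% of all genes, and 1 lower in males, against 411 of 16708 genes. The tool limma-voom called 3 higher in females, against 6.74%, and 2 higher in males, against 625 of 16708 genes. Over both sexes 5 of 24 rose and 0 fell, against 6.85% and 7.87% of all genes, with a median log2 fold change of 0.67 against -0.012 for all genes. Mef2c, a transcription factor of muscle and heart, rose by 2.05 (adjusted p = 0.0247, edgeR) and Isl1, a factor of heart progenitors, by 1.64 (adjusted p = 0.0249). The sarcomere genes Myh6 and Tnnt2 rose by 2.37 and 1.87 (adjusted p = 0.0306 and 0.037, edgeR). Their levels were low, with Isl1 the highest at 2.47 ± 0.728 CPM (SD, n = 2) in female CKO against 0.878 ± 0.483 CPM (n = 3) in female Ctrl embryos. Markers of mesenchyme summed to 29.6 CPM in female CKO 2 and 26.2 CPM in male CKO 3, against 2.63 to 16.0 CPM in the other libraries, and markers of red blood cells to 16.4 CPM in female CKO 1 and 20.4 CPM in male CKO 1, against at most 2.06 CPM elsewhere. Their part in these values was not tested.

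Endoderm differentiation genes included members called in each sex. In females 4 of 16 rose and 1 fell, against 3.01% and 4.16% of all genes. In males 2 of 16 rose, against 1.2%, and over both sexes 5 rose and 1 fell, against 6.85% and 7.87%. Krt18, a keratin of simple epithelia, rose from 16.7 ± 2.84 CPM (SD, n = 3) to 33.6 ± 3.01 CPM (n = 2) in females, and by 1.14 on the log2 scale in males (adjusted p = 0.0389 and 0.0296, edgeR). The related keratin Krt19 rose by 3.10 on the log2 scale in females (adjusted p = 0.0184, edgeR). Hhex, a homeobox gene of the foregut, rose by 0.80 in males (adjusted p = 0.0188, edgeR). Cdh1 (E-cadherin), which germ cells express as well, fell by 1.14 in females (adjusted p = 0.008, edgeR). Foxa3, a relative of Foxa1 and Foxa2 in liver and gut, rose by 3.69 in females (adjusted p = 0.0363, edgeR), from a mean of 0.032 CPM to 0.464 CPM. Foxa2 and Foxa1 thus had values of the other sign, with Foxa1 at -0.32 in females (adjusted p = 0.81, edgeR). Of 12 tested PRC2 genes, 3 fell in CKO females, namely Ezh2, Suz12 (-0.72) and Jarid2 (-0.69), against 4.16% of all genes lower.

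The sexes differed in many of these factors. Between female and male Ctrl embryos 14 of 35 were called, 10 higher in females and 4 higher in males, against 39.5% of all genes (20.1% and 19.4%). Among CKO embryos 16 of 35 were called, 13 higher in females and 3 higher in males, against 38.4% of all genes (19.4% and 19.0%). The total share called is near that of all genes in both. Scaling by library size alone moved the median of all genes from 0.029 to 0.21 among CKO embryos and their calls to 26% higher in females and 13.2% lower, with 13 factors higher and 3 lower. Among Ctrl embryos it called 24.3% of all genes higher in females and 15.5% lower, with 10 factors higher and 4 lower. The median log2 difference, female minus male, was 0.36 among Ctrl and 1.32 among CKO embryos, and 1.11 with Foxf1, which had no count in male CKO embryos, at its bound. Markers of pregranulosa cells, the somatic cells of the fetal ovary, summed to between 16.1 and 28.6 CPM in females. In males they summed to between 4.64 and 14.8 CPM. Irx3 lay between 5.65 and 12.9 CPM in females and between 0.0292 and 1.2 CPM in males. Bmp2 and Wnt4 were also higher in every female than in any male. Foxl2 reached 1.11 CPM in females and 0.146 CPM in males. Fst lay between 0.719 and 1.72 CPM in females and between 1.32 and 3.21 CPM in males. Rspo1 and Lgr5 overlapped between the sexes, with the highest values, 9.37 and 1.28 CPM, in male Ctrl 1. The part of these markers in the sex differences was not tested.

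Cdx1 was the factor with the smallest adjusted p. It stood at 18.2, 12.3 and 10.6 CPM in female Ctrl and at 24.5 and 25.2 CPM in female CKO embryos. In males it stood at 2.6, 4.04, 4.86 and 2.2 CPM in Ctrl and at 2.98, 3.95 and 3.34 CPM in CKO embryos. Every female lay above every male. The log2 difference was 2.0 among Ctrl (SE 0.27, adjusted p = 8.43e-05, edgeR) and 2.86 among CKO embryos (SE 0.32, adjusted p = 3.08e-05).

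Of the forkhead factors, Foxc1, Foxa1 and Foxc2 were called higher in female Ctrl embryos. Foxc1, a regulator of somite and heart mesoderm, stood at 6.27, 2.97 and 4.36 CPM in female Ctrl embryos, while male Ctrl embryos had 1, 12, 1 and 10 counts, at most 0.495 CPM. The log2 difference was 4.33 among Ctrl (adjusted p = 0.000791, edgeR) and 3.14 among CKO embryos (adjusted p = 0.0169). The CKO call of Foxc1 was lost without female CKO 1 (adjusted p = 0.0617, edgeR) or male CKO 2 (0.0572). Foxa1 lay between 2.08 and 3.41 CPM in all females and between 0 and 0.728 CPM in all males, with log2 differences of 2.88 and 3.57 (adjusted p = 0.00146 and 0.00173, edgeR). Foxc2 had 56, 12 and 9 counts in female Ctrl and 0, 0, 3 and 0 in male Ctrl embryos (adjusted p = 0.00981, edgeR), and without female Ctrl 1 the adjusted p was 0.0733. Foxa2 did not pass the test between the sexes among Ctrl embryos (adjusted p = 0.996, edgeR), nor did Foxf1 (0.226). Foxd1, named after its values were seen, had 4, 0 and 0 counts in female Ctrl against 39, 4, 10 and 4 in male Ctrl embryos (adjusted p = 0.0768, edgeR), and DESeq2 and limma-voom called it.

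Tbx1 and Six2 were higher in females at either genotype. The log2 difference of Tbx1 was 1.99 among Ctrl (adjusted p = 0.000211, edgeR) and 1.98 among CKO embryos (adjusted p = 0.00193). For Six2 it was 2.01 (adjusted p = 0.00593, edgeR) and 2.04 (adjusted p = 0.0289), and the Ctrl call was lost without female Ctrl 1 (0.0532). Tbx2, a T-box repressor of heart and limb, differed by 1.89 among Ctrl and 1.75 among CKO embryos (adjusted p = 0.00179 and 0.0108, edgeR). Without female CKO 1 the adjusted p of Six2 and Tbx2 among CKO embryos was 0.221 and 0.0664 (edgeR), and for Six2 it was 0.0886 without male CKO 2 and 0.0836 without male CKO 3.

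The somite and heart factors of the Mesp pair shared the direction. Mesp1, which marks the earliest cardiac mesoderm, had 27, 15 and 23 counts in female Ctrl against 0, 2, 4 and 7 in male Ctrl embryos. Its log2 difference was 2.54 among Ctrl (adjusted p = 0.0148, edgeR) and 3.53 among CKO embryos (adjusted p = 0.00649). Mesp2 differed by 0.88 among Ctrl (adjusted p = 0.0144, edgeR) and 1.11 among CKO embryos (adjusted p = 0.0106). Female and male Ctrl values of Mesp2 overlapped, at 4.36 to 8.51 CPM and 3.3 to 5.0 CPM. Without female Ctrl 1 or Ctrl 2 the adjusted p of Mesp2 among Ctrl embryos was 0.0781 or 0.0638 (edgeR), and without female CKO 1 that among CKO embryos was 0.0602.

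The SOX factors of endoderm and endothelium, Sox7, Sox17 and Sox18, had female values above male values. Among CKO embryos the log2 differences were 4.27 for Sox7 (adjusted p = 0.0117, edgeR), 4.12 for Sox17 (adjusted p = 0.0105) and 3.88 for Sox18 (adjusted p = 0.00291). Without female CKO 2 the adjusted p of Sox7 was 0.0694 (edgeR). Sox17 stood at 1.23 and 1.29 CPM in female CKO embryos and had 0, 5 and 1 counts in male CKO embryos. Among Ctrl embryos only Sox7 of these 3 passed, at 2.42 (adjusted p = 0.0487, edgeR), and this call was lost in 11 of 19 alternatives, while limma-voom called all 3. Endothelial markers, with none of these genes among them, summed to between 142 and 311 CPM in females and 167 and 349 CPM in males, of which Pecam1, also a germ cell gene, made up 129 to 324 CPM. Plvap lay between 2.42 and 13.0 CPM, Tek between 2.49 and 8.66 CPM, and Flt1, Esam and Cdh5 reached 2.1, 2.08 and 2.12 CPM. Kdr reached 0.512 CPM, Tie1 0.421 CPM and Emcn 0.102 CPM, with no count in 2, 4 and 6 libraries. The part of endothelial RNA in the differences was not tested.

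The 4 factors higher in male Ctrl embryos were T, Gsc, Eya1 and Evx1. T lay between 0.876 and 1.42 CPM in male Ctrl and between 0.125 and 0.491 CPM in female Ctrl embryos, a log2 difference of -1.76 (adjusted p = 0.0126, edgeR). Without female Ctrl 2 the adjusted p was 0.0524 (edgeR). Gsc had 1, 0 and 5 counts in female Ctrl against 45, 18, 41 and 24 in male Ctrl embryos, a difference of -3.97 (adjusted p = 0.0047, edgeR). Eya1 differed by -2.76 among Ctrl (adjusted p = 0.00566, edgeR) and -2.62 among CKO embryos (adjusted p = 0.0143), and without female CKO 1 the latter was -2.19 (adjusted p = 0.126). It had 0, 14 and 6 counts in female Ctrl and 51, 31, 58 and 32 in male Ctrl embryos.

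T, Gsc and Eya1 had every male Ctrl embryo above every female Ctrl embryo. Evx1 differed by -1.45 (adjusted p = 0.0198, edgeR), but its exons overlap those of the antisense gene Evx1os by 73 bases, and the libraries do not keep the strand. Exons of Sox17 (804 bases), Pax8 (367), Eomes (118), Foxf1 (98) and Gata6 (93) overlap those of opposite-strand genes as well. The part of such overlaps in the values was not tested. Without female Ctrl 2, female Ctrl 3 or male Ctrl 3 the adjusted p of Evx1 was 0.0651, 0.0631 or 0.0594 (edgeR). Germ layer signals had 8 of 28 genes higher and 11 lower in female Ctrl embryos, against 20.1% and 19.4% of all genes. The Nodal pathway genes Lefty2 (-9.60), Tdgf1 (-8.07) and Lefty1 (-7.57) and the ligand Wnt3 (-3.70) had the smallest adjusted p, all higher in males.

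**Figure D5:**
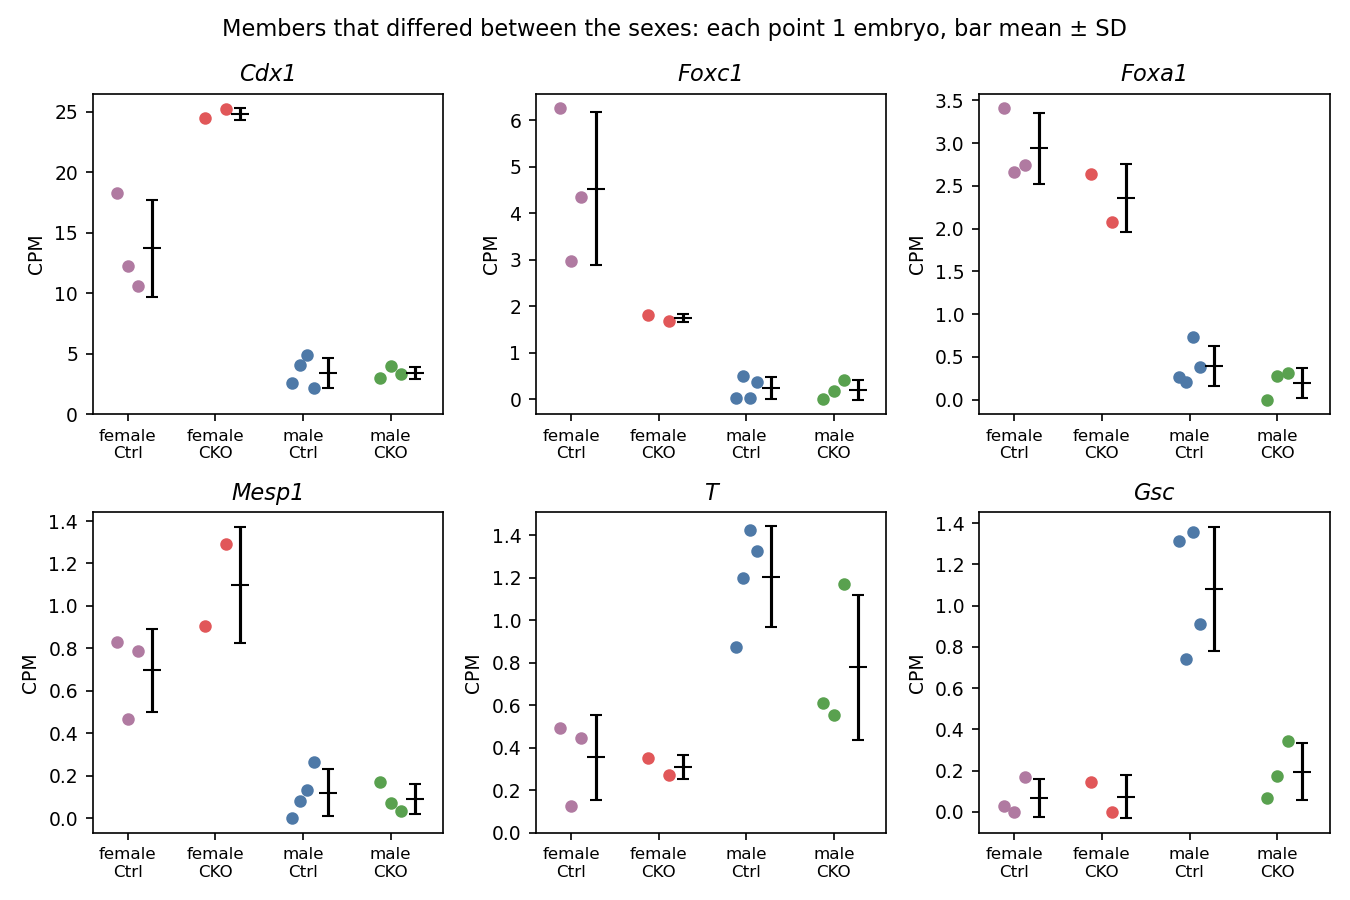
CPM (vertical axes) of Cdx1, Foxc1, Foxa1, Mesp1, T and Gsc in each embryo (points), by group, with the mean ± SD as bars. The first 4 genes lie higher in females of both genotypes, while T and Gsc lie highest in male Ctrl embryos.

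Gata4, a factor of heart and endoderm that the somatic gonad also uses, was called between the sexes among CKO embryos. It stood at 0.878 and 0.632 CPM in female CKO and at 3.59, 1.84 and 7.02 CPM in male CKO embryos, a log2 difference of -2.45 (adjusted p = 0.00774, edgeR). Among Ctrl embryos the difference was -1.23 (adjusted p = 0.0627, edgeR), and DESeq2 called it (0.0364). It also passed without female Ctrl 2 (adjusted p = 0.039, edgeR), male Ctrl 4 (0.0463), male CKO 2 (0.0447) or male CKO 3 (0.0443). The 3 libraries with the most Gata4 were male CKO 3, male Ctrl 1 and male CKO 1. Sertoli markers without the listed factors summed to 37.3, 45.8 and 32.5 CPM in these, against 16.3 to 20.3 CPM in the other males and 10.5 to 13.9 CPM in females. Most of the female sum was Aard, at 10.2 to 13.6 CPM. Amh and Cst9 had no count in any female, and Sox9 reached 0.24 CPM in females and 6.04 CPM in males. The part of the Sertoli markers in the Gata4 difference was not tested. Without female CKO 2 the adjusted p of Gata4 was 0.0695 (edgeR).

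Eomes, Twist1 and Mixl1 were also called among CKO embryos. Eomes differed by -3.57 (adjusted p = 0.0128, edgeR), Twist1, a helix-loop-helix factor of mesenchyme, by 1.42 (adjusted p = 0.0234) and Mixl1 by 1.32 (adjusted p = 0.0366). Without female CKO 1 each missed the threshold, at an adjusted p of 0.112, 0.101 and 0.109 (edgeR). Mixl1 missed it without any 1 of the 5 CKO embryos (adjusted p = 0.0608 to 0.111, edgeR), and Twist1 without any but male CKO 3 (0.055 to 0.101). Without female CKO 1, 9 of the 35 factors were called among CKO embryos, against 24.3% of all genes.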

How the data were processed

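RNA of sorted primordial germ cells was sequenced from 12 embryos. Per the labels' protocols, cDNA was amplified from 1 ng of RNA with SMART-seq V4, which does not keep the strand. Values are the authors' raw read counts for each gene, as deposited. Tools listed in the submitters' processing notes are featureCounts, TopHat2 2.0.11, Trimmomatic 0.33 and CASAVA 1.8.4, and the builds listed there are NCBIM37 and mm9. How reads with several matches were counted is not given in the sources used here, so counts of genes with near-identical copies are uncertain.

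Genes were kept with filterByExpr (minimum count 10, minimum total 15), scaled by TMM and fitted in edgeR 4.0.16 (R 4.3.3, limma 3.58.1) with 4 group coefficients over all 12 libraries (8 residual degrees of freedom). P-values were adjusted over all 16708 genes and called under 0.05. Each library is 1 embryo, and nothing in the labels says whether embryos shared a litter. Exon lengths and chromosomes came from GENCODE M21 on GRCm38. Marker sums leave out the listed factors. The model was tested on simulated data. Alternatives were other scalings, filters, DESeq2 1.42.0, limma-voom, only the groups compared, a replicate block and leaving out each embryo.

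The gene list and all other lists were chosen with earlier results of these data known. Genes were named if called in any comparison, if among the 12 highest in mean CPM, if among the 6 largest changes per sex and direction with groups apart, if they had no count, or if they are main regulators of the germ layers (such as T, Eomes, Gata4 and Sox17). For each other list, up to 4 called genes with the smallest adjusted p were named.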

Additional observations from a re-analysis of the deposited data

Results flagged for a closer look

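Dixon's test was applied to each of the 32 named factors in the male Ctrl group, the only group of 4. Chance flags about 1 in 20 groups of normally distributed values, a rate that need not hold for counts near 0. A factor with counts in 1 embryo only, as Foxc2 and Pdx1 here, is always flagged, and Alx1 and Evx2 with no count cannot be. The test set apart the highest embryo for 5 factors. Mesp2 reached 5.0 CPM in male Ctrl 3, against 3.3 to 3.56 CPM in the other 3. Sox17 reached 0.371 CPM in male Ctrl 2, where the others had at most 1 count. Foxc2 reached 0.0993 CPM in male Ctrl 3, which is 3 counts against none. Hnf4a reached 0.454 CPM in male Ctrl 2, with 11 counts against 1, 0 and 0. Pdx1 reached 0.124 CPM in male Ctrl 2, with 3 counts against none. Of these, 4 factors rest on 11 counts or fewer. No factor had every CKO embryo higher in one sex and lower in the other.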

How the results depend on the processing

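Every alternative shares most of its libraries with the main fit, so a kept sign says little. Small effects, such as those of T in females and Mixl1 in each sex, were not among the single results followed here. The log2 values of 60 single results were recomputed in 1154 alternatives. Of these, 1050 stayed on their side of the threshold, 52 lost it, 52 gained it and 0 changed sign. The count of factors called in females was 2 and became 6 with only the groups compared, with DESeq2 and with limma-voom, and 4 with the replicate block. Leaving out 1 embryo gave 1 to 5, with 5 without male Ctrl 1 or 2. In males the count was 1 and became 2 with no filter, 3 with DESeq2 and 4 with limma-voom, and 1 to 3 with 1 embryo left out (3 without male Ctrl 2, 2 without male CKO 1). Over both sexes it was 5 and became 8 with no filter, 3 with a filter of 5 CPM in 2 libraries, 9 with DESeq2 and 8 with limma-voom. Leaving out 1 embryo gave 3 to 7, with 3 without female CKO 2. Between the sexes it was 14 among Ctrl and 16 among CKO embryos, and 5 in both with the filter of 5 CPM, which tests fewer genes and fewer factors. Leaving out 1 embryo gave 10 to 17 and 9 to 18. The cause of the other changes was not tested. Calls over all genes moved under these settings too. In males they were 201 higher and 83 lower, 579 and 411 with DESeq2 and 625 and 497 with limma-voom. They were 267 and 100 of 27180 genes with no filter, and 355 and 170 without male Ctrl 2. In females 503 and 695 became 844 and 856 with only the groups compared. They became 710 and 807 without male Ctrl 1, 822 and 790 without male Ctrl 2, and 161 and 287 without female Ctrl 3. Over both sexes 1145 and 1315 became 1577 and 1614 with DESeq2 and 1791 and 1717 with limma-voom. With no filter they were 1135 and 1060 of 27180 genes. With the filter of 5 CPM they were 2696 and 2710 of 11127 genes among Ctrl embryos. Among CKO embryos they were then 2670 and 2530, and over both sexes 942 and 1061. The counts of factors under that filter are not out of 35, since it also tests fewer of the factors.

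Embryos of equal replicate number in the sample titles gave no clear sign of pairing, but the check is weak. With 2 female CKO embryos, each female Ctrl embryo correlates with them at equal size and opposite sign. The submitters' column names number the female embryos otherwise, and there female Ctrl 2 and female CKO 2 alone share a number. Deviations of embryos paired by title correlated at 0.108 and -0.022 in females and at -0.024, 0.029 and 0.0065 in males. The replicate block used the title numbers, shared across the sexes. With the replicate block the counts were 4 in females, 1 in males, 4 over both sexes, 12 among Ctrl and 16 among CKO embryos. All genes called higher and lower were then 359 and 695 in females, 71 and 34 in males and 973 and 1338 over both sexes. They were 3115 and 3027 among Ctrl and 2974 and 3116 among CKO embryos. Foxa2 over both sexes then had an adjusted p of 0.0509 (edgeR). Depth limits the 20 untested factors and those at a few counts. The female CKO group has 2 embryos.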

Other observations

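Some low factors were high in 1 embryo, as named here after their values were seen. Tcf21, a factor of kidney and gonad mesenchyme, stood at 2.59 CPM in female CKO 2 and at most 0.53 CPM elsewhere. Foxd1, a factor of the kidney stroma, stood at 2.05 CPM in that embryo, against at most 1.14 CPM in the other 11. The same embryo had the highest sum of mesenchyme markers, 29.6 CPM. Female Ctrl 1 was the highest embryo for Tbx1, Six2, Tbx2, Foxc1, Foxc2 and Barx1. Gata6, a factor of endoderm and heart, ranged from 0.0343 to 1.01 CPM within the female Ctrl embryos alone.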
